A study of Homo sapiens with 12 samples.

Results

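The CCR4-NOT complex shortens the poly(A) tails of mRNAs in the cytoplasm. Of its subunit genes, 10 were followed here by their symbols, among 17520 genes in an expression table. They were CNOT1, CNOT2, CNOT3, CNOT4, CNOT6, CNOT6L, CNOT7, CNOT8, CNOT10 and CNOT11, and the subunit gene CNOT9 was not among them. The m6A sites in their gene bodies on the gene strand were followed as well, 45 of 96671 sites listed with insulin and 22 of 63578 listed with Torin1. The cells were HEK293E, a derivative of the human embryonic kidney line HEK293, starved of serum overnight. All groups received 200 nM insulin for 30 h, and the Torin1 groups were also pretreated with 250 nM Torin1, an ATP-competitive inhibitor of the kinase mTOR. Poly(A) RNA gave input libraries and miCLIP libraries. In miCLIP an antibody is fixed by ultraviolet light to N6-methyladenosine (m6A), and base substitutions in the reads then mark methylated adenosines. The 12 libraries formed 4 groups of 3. No group without insulin was analysed here, and the labels call the replicates biological without naming separate cultures. The p-values therefore measure the spread between these libraries, which may be technical.

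Removal of the poly(A) tail is the first and usually rate-limiting step in the decay of most mRNAs. In CCR4-NOT, the large scaffold CNOT1 holds the nucleases of the CCR4 type (CNOT6 or CNOT6L) and of the CAF1 type (CNOT7 or CNOT8), the NOT module (CNOT2 and CNOT3) and the CNOT10 and CNOT11 module. The complex has no strong sequence preference of its own and is brought to mRNAs by adaptors, among them microRNA effector proteins and the m6A reader YTHDF2, which binds CNOT1. The series therefore holds the level of the mRNAs for this machinery and the m6A sites listed on the same mRNAs, under mTOR inhibition.

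Input totals were 11418114 to 12528454 normalized units per library, and 5 libraries whose depth could be recovered held 7.32 to 11.8 M reads. The depths of insulin replicate 3 (11.8 M) and Torin1 replicate 2 (11.09 M) are less certain than the others. Of the 7 HEK293 markers found, 6 passed the filter on low values, and PAX2, at 6 to 11 units, did not. The summed level of the 7 was 3911 to 3931 units with insulin and 9161 to 9190 with Torin1, most of it VIM. The markers did not move together. VIM, KRT8, KRT18 and INA were called higher with Torin1, NEFM was called lower (means of 183 and 87.3 units), and LHX1 was not called. Blood markers summed to 105 to 121 units with insulin and 1 to 10 with Torin1, with PTPRC and CD3E at or below 10 units in every library. CD14 made up most of the insulin sum, at 95, 85 and 86 units, and was at 6, 6 and 0 with Torin1. HBA1 was at 26, 25 and 17 units with insulin and at 3, 2 and 0 with Torin1. Fibroblast and endothelial markers summed to 188 to 238 and 527 to 547 units, most of it COL1A1, and keratinocyte and liver markers to 8 to 14 in both groups. The part of these differences in the results below was not tested. In bulk RNA, fewer cells that express a gene and less RNA per cell cannot be told apart.

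The mRNAs of the 10 members moved in both directions with Torin1, and CNOT3 moved far more than the other members. CNOT9, a subunit outside the members, is given further below. By limma at an adjusted p below 0.05, 4 of the 10 members were called higher, 5 lower and 1 not at all, where 86.0% of 13842 tested genes were called (43.4% higher and 42.5% lower). All 10 passed the filter on low values. A change beyond 1.5-fold was called for CNOT3 alone among the members, against 47.5% of tested genes (25.0% higher and 22.5% lower). In 9 members the Torin1 and insulin libraries did not overlap, as in 86.3% of tested genes. The median log2 fold change of the members was -0.07, and that of all tested genes was 0.02. Thus the number of calls was near the background, and 9 of the 10 members lay between -0.30 and 0.56 on the log2 scale. The middle 50% of all tested genes spanned -0.68 to 0.80.

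**Figure D1:**
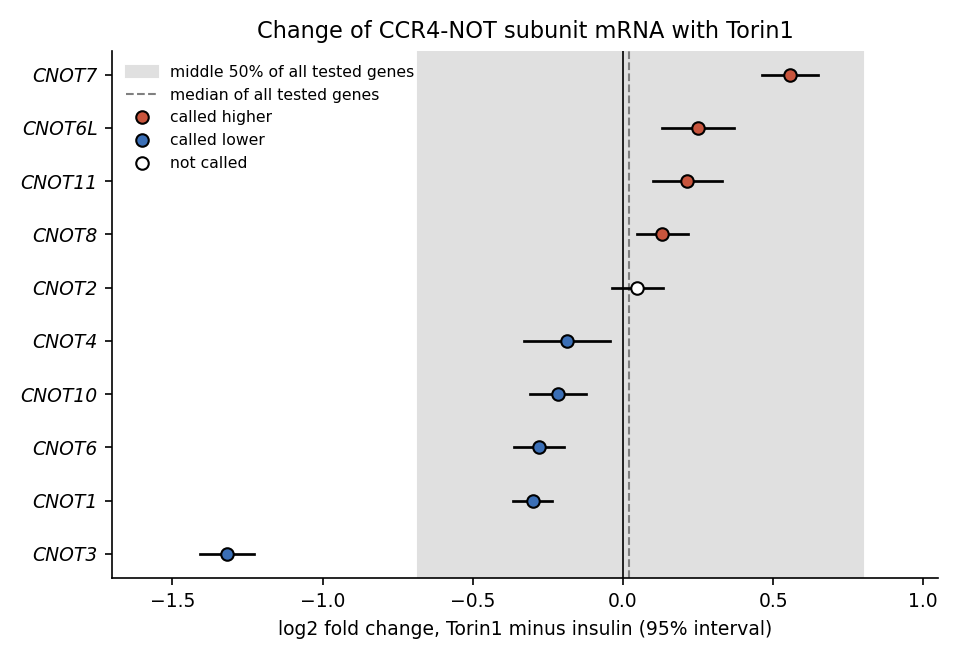
Log2 fold change (Torin1 minus insulin, on log2 of the normalized value + 1) of each CCR4-NOT subunit with its 95% interval from limma; the grey band is the middle 50% of all tested genes and the dashed line their median. CNOT3 at -1.32 is the only member outside the band, and the interval of CNOT2 includes 0.

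CNOT1 encodes the scaffold on which the other subunits assemble. Its mRNA stood at 8515, 8209 and 7976 normalized units in the 3 insulin libraries and at 6632, 6760 and 6652 in the 3 Torin1 libraries. The groups did not overlap, and every Torin1 library was lower. The log2 fold change was -0.30 (SE 0.03, limma adjusted p = 3.7e-09). The annotated end of CNOT1 overlaps that of SETD6 by 3892 bases, and without stranded counting reads from the overlap cannot be told apart. SETD6 was at -0.13 (limma adjusted p = 0.016).

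In the NOT module the CNOT2 and CNOT3 mRNAs behaved differently. The proteins form a heterodimer that docks on the scaffold. CNOT3 was at 2519, 2336 and 2274 units with insulin and at 946, 932 and 975 with Torin1. The Torin1 libraries thus held 0.400 times the insulin mean, with little spread between replicates (SD 127 and 21.9, n = 3 each). The log2 fold change was -1.32 (SE 0.04), with limma adjusted p = 2.9e-18 for any change and 2.6e-13 for a change beyond 1.5-fold. CNOT2 was at 1316, 1270 and 1311 units with insulin and at 1311, 1338 and 1382 with Torin1. These groups overlapped, and the log2 fold change of 0.05 was not called (95% interval -0.04 to 0.13, limma adjusted p = 0.27). CNOT2 was called higher when libraries were scaled to equal totals, at 0.17 (limma adjusted p = 4.8e-04), and with quantile normalization, at 0.27 (1.9e-06). Over all alternatives its adjusted p ran from 1.9e-06 to 0.576.

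LENG1, whose body overlaps the annotated end of CNOT3 by 521 bases, was at -1.35 (limma adjusted p = 7.1e-11), with a mean of 249 units with insulin and 96.3 with Torin1. The strand of the counting was not given in the sources used here, so reads of the overlap cannot be assigned to either gene. CNOT9, the subunit that docks beside the NOT module and binds microRNA effector proteins, is listed in the table under its older symbol RQCD1 and was not among the 10 members. It was at 2483, 2615 and 2444 units with insulin and at 1151, 1179 and 1144 with Torin1, a log2 fold change of -1.12 (SE 0.04, limma adjusted p = 1.1e-17). Like CNOT3 it was called for a change beyond 1.5-fold (limma adjusted p = 1.6e-11).

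**Figure D2:**
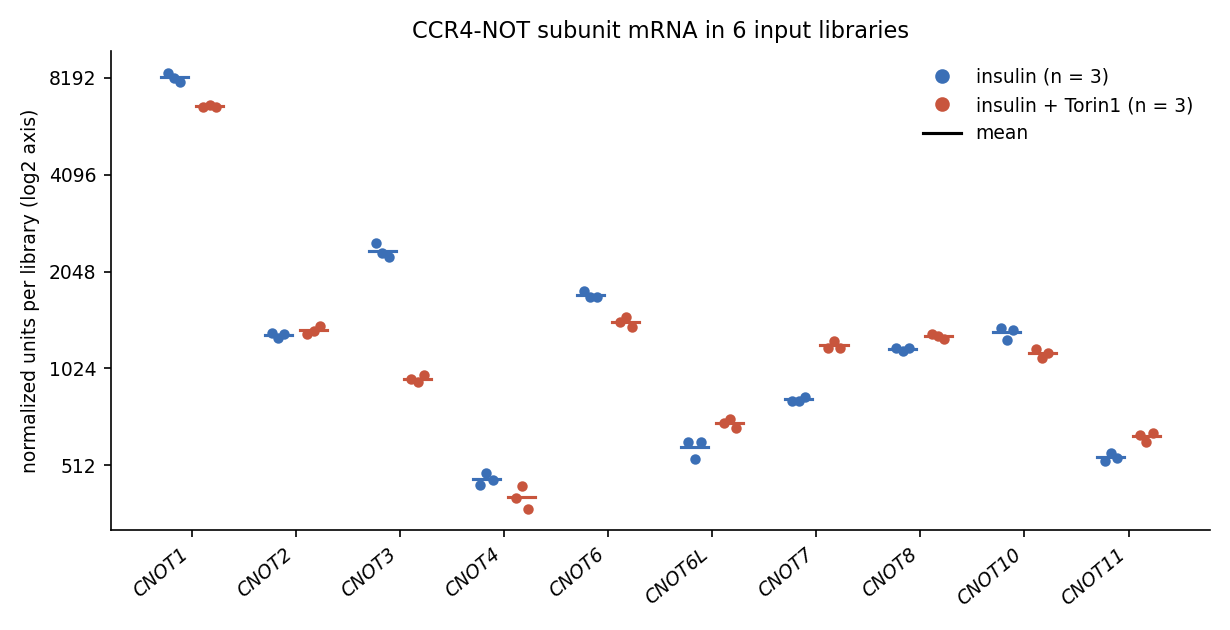
Normalized units (log2 axis) of the 10 subunit mRNAs in each of the 3 insulin and 3 insulin + Torin1 input libraries, with group means as lines. Values are not corrected for transcript length, so only the 2 groups of a gene are comparable: CNOT3 falls from a mean of 2376 to 951 units, CNOT7 rises from 820 to 1207, and CNOT2 overlaps.

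The nuclease genes shifted within each pair of paralogs. CNOT6 and CNOT6L encode the CCR4-type nucleases, members of the exonuclease-endonuclease-phosphatase family, and an assembled complex holds either protein. CNOT6 was at 1785, 1705 and 1708 units with insulin and at 1431, 1474 and 1380 with Torin1, with no overlap (log2 fold change -0.28, SE 0.04, limma adjusted p = 1.1e-06). CNOT6L was at 605, 534 and 605 units with insulin and at 691, 711 and 670 with Torin1, also without overlap and in the other direction (0.25, SE 0.06, limma adjusted p = 4.1e-04). The call of CNOT6 depended on the scaling: with quantile normalization it was at -0.01 and not called (limma adjusted p = 0.738), and over the alternatives its adjusted p ran from 6.1e-08 to 0.738. CNOT6L stayed called in each of 13 alternatives, with values from 0.19 to 0.38.

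CNOT7 and CNOT8 encode the CAF1-type nucleases of the DEDD family, which also bind the BTG and TOB adaptor proteins. CNOT7 was at 812, 811 and 837 units with insulin and at 1185, 1250 and 1185 with Torin1. This was the largest rise among the members, 1.47 times the insulin mean (log2 fold change 0.56, SE 0.05, limma adjusted p = 6.7e-11), and it was not called beyond 1.5-fold. CNOT8 was at 1182, 1162 and 1185 units with insulin and at 1310, 1295 and 1261 with Torin1. It rose slightly, by 0.13 (SE 0.04, limma adjusted p = 0.0054), with no overlap between groups. Both remained called in each of 13 alternatives, CNOT7 at 0.53 to 0.71 and CNOT8 at 0.12 to 0.34.

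A ratio of 2 mRNAs within a library does not change when all its values are multiplied by 1 factor. The CNOT6L to CNOT6 ratio was 0.314 to 0.355 in the insulin libraries and 0.483 to 0.486 in the Torin1 libraries, a difference of 0.53 on the log2 scale. The CNOT8 to CNOT7 ratio went from 1.42 to 1.46 down to 1.04 to 1.11, a difference of -0.43. Neither ratio overlapped between groups. How many pairs of other tested genes separate in this way was not counted, and 86.3% of single tested genes did. Quantile normalization, which is not such a factor, gave 0.31 for CNOT6L to CNOT6 and -0.37 for CNOT8 to CNOT7, an alternative added after the data were seen. The exact permutation test over the 6 libraries (two-sided) gave p = 0.1 for each of these 2 ratios, adjusted p = 0.1, which is the smallest that 3 against 3 allows, so the design could not pass 0.05. Paralog mRNAs share stretches of sequence, and CNOT7, CNOT4 and CNOT6L have pseudogenes, so part of their reads could have been counted elsewhere or not at all.

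**Figure D3:**
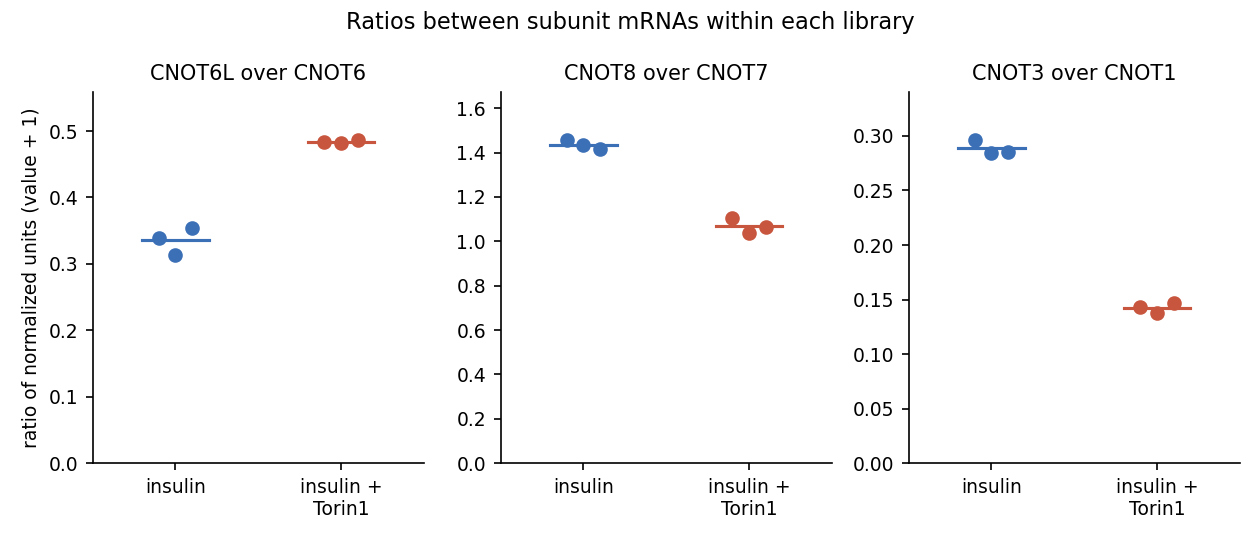
Ratio of normalized units (value + 1) between subunit mRNAs within each library, for CNOT6L over CNOT6, CNOT8 over CNOT7 and CNOT3 over CNOT1; points are libraries (n = 3 per group), lines are group means, and each axis starts at 0. The groups do not overlap in any panel: CNOT6L gains on CNOT6, CNOT8 loses against CNOT7, and CNOT3 drops per CNOT1. CNOT3 per CNOT1 goes from 0.285 to 0.296 with insulin to between 0.138 and 0.147 with Torin1. How many other gene pairs separate was not counted.

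Ratios to the scaffold in the same library carry the change of each member together with the fall of CNOT1 itself (-0.30). The CNOT3 to CNOT1 ratio differed by -1.02 on the log2 scale (Torin1 minus insulin). CNOT7 was 0.86 higher relative to CNOT1, CNOT6L 0.55, CNOT11 0.52, CNOT8 0.43 and CNOT2 0.35, and none of these 6 ratios overlapped between groups. CNOT2 by itself was not called as deposited, but how its ratio divides between a rise of CNOT2 and a fall of CNOT1 depended on the scaling. With equal totals CNOT2 was at 0.17 and CNOT1 at -0.18. With quantile normalization CNOT2 was at 0.27 and CNOT1 at -0.12. How many of all tested genes separate from CNOT1 in this way was not counted. CNOT4, CNOT10 and CNOT6 shifted by 0.12, 0.08 and 0.02, with overlapping groups. These ratios to CNOT1 were chosen after the values were seen and are given without a test.

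CNOT10 and CNOT11 encode a module that binds the N-terminal part of CNOT1. CNOT10 was at 1371, 1256 and 1346 units with insulin and at 1176, 1103 and 1139 with Torin1 (log2 fold change -0.22, SE 0.05, limma adjusted p = 1.2e-04). CNOT11 was at 528, 558 and 539 units with insulin and at 635, 606 and 645 with Torin1 (0.21, SE 0.06, limma adjusted p = 0.0011). Neither gene's groups overlapped, and the module's mRNAs moved in opposite directions. With equal library totals the fall of CNOT10 was not called, at -0.09 (limma adjusted p = 0.0664), nor was it with quantile normalization, at -0.01 (0.873), and its adjusted p over the alternatives ran from 4.0e-05 to 0.873. CNOT11 was called in each of 13 alternatives, at 0.20 to 0.34.

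CNOT4 encodes a RING-type ubiquitin ligase that in human cells is not a stable part of the complex. Its mRNA was at 443, 485 and 461 units with insulin and at 406, 442 and 375 with Torin1. The groups were separated by 1 unit, between 442 and 443. The log2 fold change was -0.19 (SE 0.07, limma adjusted p = 0.016). This call was the least firm of the members: it was lost without insulin replicate 2 (-0.15, limma adjusted p = 0.071), without Torin1 replicate 3 (-0.13, 0.113), without a trend in the prior variance (0.0557) and with scaling to equal totals (-0.06, 0.415). In the 5 libraries of recovered depth its values rested on 260 to 438 reads, the fewest of the 10 members, where CNOT1 had 4779 to 7575.

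Scaling to equal totals moved the median of all tested genes by 0.12, and the member calls have to be read against that shift. With it CNOT1, CNOT3 and CNOT6 remained called lower, at -0.18, -1.19 and -0.15, and 5 members were called higher. With quantile normalization CNOT1 (-0.12), CNOT3 (-1.09) and CNOT4 (-0.27) were called lower and 5 members higher. The median of the members, -0.07 as deposited, turned to 0.06 with equal totals and to 0.11 with quantile normalization. No single member changed sign in any alternative. CNOT3 stayed between -1.35 and -1.09 in all 13.

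By Euclidean distance over the 6 libraries, on log2 values centred on each gene, the tested genes with the pattern most like that of CNOT3 were HIP1 (distance 0.049, log2 fold change -1.30), DCUN1D2 (0.059, -1.31) and SREBF1 (0.059, -1.32). Nearest to CNOT7 were MAPK1IP1L (0.048, 0.53), ACIN1 (0.052, 0.58) and GSTCD (0.054, 0.54). With 2 conditions this measure mainly finds genes with an equal fold change.

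TOP mRNAs, whose translation mTOR is best known to control, begin with a C followed by a run of C and T. The starts of the members are shown because they can be held against that pattern. Shown are 10 bases before and 20 from the RefSeq start on (GRCh38.p14, first listed start of each gene), with the first 5 transcribed bases in capitals, for the member that fell most and for 3 nuclease genes.
CNOT3 (chr19:54137752-54137781, plus strand): cgccgccgccATCTTggaccgggcccggtc
CNOT6 (chr5:180494369-180494398, plus strand): ctcgctggctGAGGGacggcggccgccgcc
CNOT6L (chr4:77820250-77820279, minus strand): gggagtgactGACTCccgccagcccctcca
CNOT8 (chr5:154858239-154858268, plus strand): gttcgctcggAAAGAggaccaaaatggagg
The table held 14 starts for 8 members, CNOT1 and CNOT7 being the others. A C at the start followed by 4 bases that are each C or T, read on the gene strand, was found at 0 of these 14 starts, at 4.07% of all 35116 starts in the table and at 44 of 81 starts of ribosomal protein genes. That a start lacks these letters says only that they are not at the annotated position.

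The other genes of deadenylation and decay were read from lists, by the same fit. Of 61 genes in these lists, all tested, 21 were called higher, 35 lower and 5 not, where 43.4% of all tested genes were called higher and 42.5% lower. NANOS3 and PABPC3 passed the filter on low values only through the group where they are high, and without them 20 of 59 were higher and 34 lower. The median log2 fold change of the 61 was -0.45, against 0.02 for all tested genes. The adaptors that carry CCR4-NOT to mRNAs were mostly lower. Of 21 such recruiter genes 17 fell and 3 rose, with a median of -0.85. Without NANOS3 16 of 20 fell and 3 rose, with a median of -0.83. Examples were CPEB3 (-2.99), RC3H1 (-2.44), which encodes the stem-loop binder Roquin-1, SAMD4A (-1.89) and CPEB4 (-1.60). The m6A readers were named after their values were seen. YTHDF2 stood at 2594 and 1437 units (-0.85, limma adjusted p = 8.5e-16), and YTHDF1 and YTHDF3 at -0.49 and -0.28.

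BTG and TOB proteins bind the CAF1-type nucleases and bring them to mRNAs. Of 5 such genes 4 fell and 1 rose. TOB1 went from 2786 to 687 units (-2.02), TOB2 was at -1.74 and BTG3 at -0.93, while BTG2 rose by 0.61. Of 8 other deadenylase genes 4 fell and 2 rose, against 42.5% and 43.4% of all tested genes. NOCT, listed as CCRN4L, fell from 275 to 56.0 units (-2.28) and PDE12 was at -0.64, while PAN2, the nuclease of the PAN2-PAN3 complex, rose by 1.34 and ANGEL1 by 0.85. PAN3 and TOE1 were not called. The list of poly(A)-binding proteins and of the PAIP proteins, which bind them, gave 4 rises and 2 falls among 7 genes. Without PABPC3 it gave 3 rises and 2 falls among 6. The 2 falls were PAIP genes, but PAIP1 rose, by 0.47 (limma adjusted p = 8.5e-07), and PABPN1 was not called. PABPC1, which coats the tail, went from 7514 to 15421 units (1.04), PAIP2B at -0.91 and PAIP2 at -0.49. PABPC3 was at 1.71 on means of 4.33 and 14.7 units and at 1.12 without insulin replicate 2, and it was not tested when any Torin1 library was left out. PABPC1 and PABPC3 are near-identical copies, so reads may be split between them.

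Decapping follows deadenylation. Of 19 genes of decapping and decay from the capped end, 11 rose and 7 fell, against 43.4% and 42.5% of all tested genes. DCP2, the decapping enzyme, was at -1.48, and the decapping factor PATL1 at -1.31. DCP1B rose from 28.3 to 310 units (3.43), while DCP1A fell from 3114 to 1409 units (-1.14). The ring subunit LSM6 was at 1.20. Of the other ring subunits LSM1 (-1.06), LSM3 (-0.73) and LSM4 (-0.51) fell, and LSM2 (0.48), LSM5 (0.71) and LSM7 (0.45) rose. The list medians kept their signs over the fits tried, with NANOS3 and PABPC3 included where they passed the filter. They were -0.86 to -0.60 for recruiters and -0.95 to -0.63 for BTG and TOB genes. For poly(A)-binding and PAIP genes they were 0.20 to 0.52, and for decapping genes 0.20 to 0.45. Without NANOS3 and PABPC3 the main fit gave -0.83 for recruiters and 0.20 for poly(A)-binding and PAIP genes. The other deadenylases gave 3 rises and 3 falls with scaling to equal totals.

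Sites of m6A in the member genes were mostly few for their level, and most rested on 1 substituted read. Each member was set beside tested protein-coding genes with a mean level within 1.5-fold of its own. With insulin only CNOT6 was above the median of such genes, 13 sites against 8. With Torin1 only CNOT4 (6 against 3) and CNOT2 (5 against 4) were above it. The lists give for each site the number of reads over it and the number of substituted reads. A position is the central adenosine of the listed 5-mer, which fitted 98.2% of 2205 sites that lay in RefSeq start windows. The 5 positions found in both lists are shown, since these were seen in 2 conditions. The capital marks the adenosine (hg38).
CNOT1, chromosome 16, 58555370, minus strand: ggAct
CNOT2, chromosome 12, 70353996, plus strand: gaAct
CNOT2, chromosome 12, 70354750, plus strand: ggAca
CNOT4, chromosome 7, 135394295, minus strand: agAcc
CNOT6, chromosome 5, 180574218, plus strand: ggAca
These were 5 of the 62 positions listed in either condition. They made up 11.1% of the insulin sites (Wilson 95% interval 4.84% to 23.5%) and 22.7% of the Torin1 sites (10.1% to 43.4%). Over the whole lists 28.3% and 43.1% were in both. Intervals cover counting error only.

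At CNOT1 58555370, 1 of 14 reads was substituted with insulin (replicate 2) and 4 of 44 with Torin1 (replicate 1), or 7.14% (exact binomial 95% interval 0.181% to 33.9%) and 9.09% (2.53% to 21.7%). At CNOT2 70353996 the numbers were 3 of 17 and 3 of 45, or 17.6% (3.80% to 43.4%) and 6.67% (1.40% to 18.3%). At CNOT6 180574218 they were 1 of 11 and 1 of 17, or 9.09% (0.230% to 41.3%) and 5.88% (0.149% to 28.7%). The intervals overlapped widely at each of these positions. The planned Fisher exact test took positions listed under replicate 1 in both conditions with at least 10 reads in each, and no member position met this, where 53 of 11627 positions (0.456%) in the whole lists were called. With any replicate allowed, 4 member positions were tested, the 3 above and CNOT2 70354750, with exact p from 0.333 to 1 and adjusted p = 1 for each, where 0.242% of 16496 positions were called. These tests compare 2 libraries, not the conditions, and no difference in a member was detected.

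**Figure D4:**
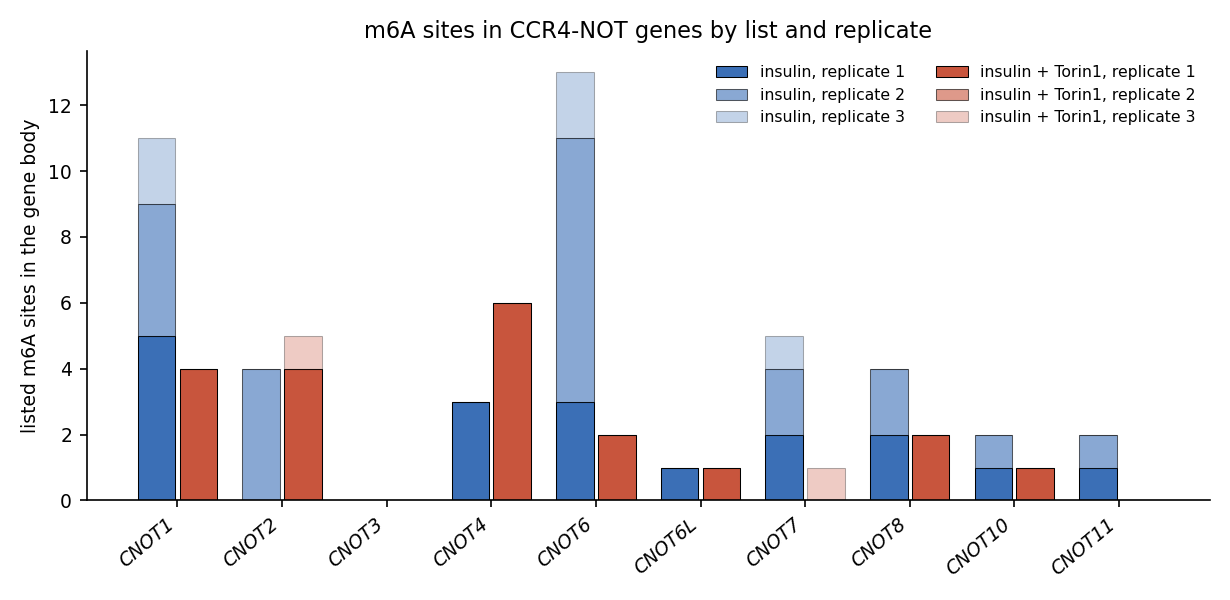
Number of m6A sites listed in the body of each subunit gene on its own strand, in the insulin list (left bars) and the Torin1 list (right bars), stacked by the replicate a site is listed under. CNOT6 has 13 sites with insulin, 8 of them under replicate 2, and 2 with Torin1; CNOT3 has none in either list.

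By gene, 6 members had fewer sites in the Torin1 list and 2 had more, where 50.7% of 13553 tested protein-coding genes had fewer and 25.4% more. CNOT6 had 13 sites with insulin and 2 with Torin1, CNOT1 11 and 4, CNOT7 5 and 1, CNOT8 4 and 2, CNOT10 2 and 1, and CNOT11 2 and 0. CNOT4 had 3 and 6, CNOT2 4 and 5, and CNOT6L 1 and 1. The loss rested largely on replicate 2, under which the insulin list held 39670 sites and the Torin1 list 1552. In the members these were 22 and 0 sites. Under replicate 1 alone 4 members had fewer sites with Torin1 and 2 had more, where over all genes the balance turned, with 27.1% fewer and 43.3% more. By that count the members held 18 and 20 sites, CNOT6 3 and 2, CNOT1 5 and 4, CNOT4 3 and 6, and CNOT2 0 and 4. Without the replicate 2 sites the insulin list held 23 member sites, without replicate 1 27, and without replicate 1 the Torin1 list held 2. Each position is listed under 1 replicate, so numbers per replicate may not be the yield of a library, and there is no replicate test.

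The reads behind the member sites were shallow. The median was 4.0 reads per site with insulin and 6.5 with Torin1, against 8.0 and 12.0 over the whole lists. Sites with 1 substituted read made up 75.6% of the members' insulin sites and 72.7% of their Torin1 sites, against 61.6% and 59.6% over all. Of the 45 and 22 member sites, 7 and 8 had 10 or more reads and 3 and 5 had 3 or more substituted reads. The 4-mer GGAC opened 24.4% and 31.8% of the member sites and 31.5% and 32.9% of all sites.

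In CNOT6, CNOT4, CNOT8 and CNOT2, 4 or more sites of a list lay within 500 nt. In CNOT6 (chr5:180494379-180578358) 6 of the 13 insulin sites lay within 342 nt, from 180574028 to 180574369, and the first of them had 3 of 9 reads substituted. In CNOT4 (chr7:135361795-135510102) 5 of the 6 Torin1 sites lay within 443 nt, from 135393971 to 135394413, 32176 to 32618 nt before the annotated end. There 3 of 17 reads were substituted at 135393971 and 3 of 8 at 135394279. In CNOT8 (chr5:154858249-154876792) the 4 insulin sites spanned 439 nt, led by 3 of 22 reads at 154875384, while 154875494 in the same stretch had 1 of 43 with Torin1.

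In CNOT2 (chr12:70243018-70354993) all 5 Torin1 sites and 3 of 4 insulin sites lay within 2000 nt of the annotated end, and 4 of the Torin1 sites lay within 248 nt, from 70354619 to 70354866. In CNOT1 (chr16:58519951-58629826) the sites were spread, with 3 of 11 and 1 of 4 that near the end, and at 58549736 3 of 6 reads were substituted with Torin1. CNOT7 (chr8:17224966-17246857) and CNOT6L (chr4:77713387-77820269) had no site within 2000 nt of the end, and each of their sites rested on 1 substituted read. CNOT10 (chr3:32685188-32773875) had 2 of 2 reads substituted at 32762874 with insulin. In CNOT11 (chr2:101252886-101270316) both insulin sites were within 2000 nt of the end. Over the members, 37.8% of insulin and 36.4% of Torin1 sites lay that near the end, against 32.4% and 33.8% in all tested protein-coding genes. Exons, introns and untranslated regions were not used here.

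**Figure D5:**
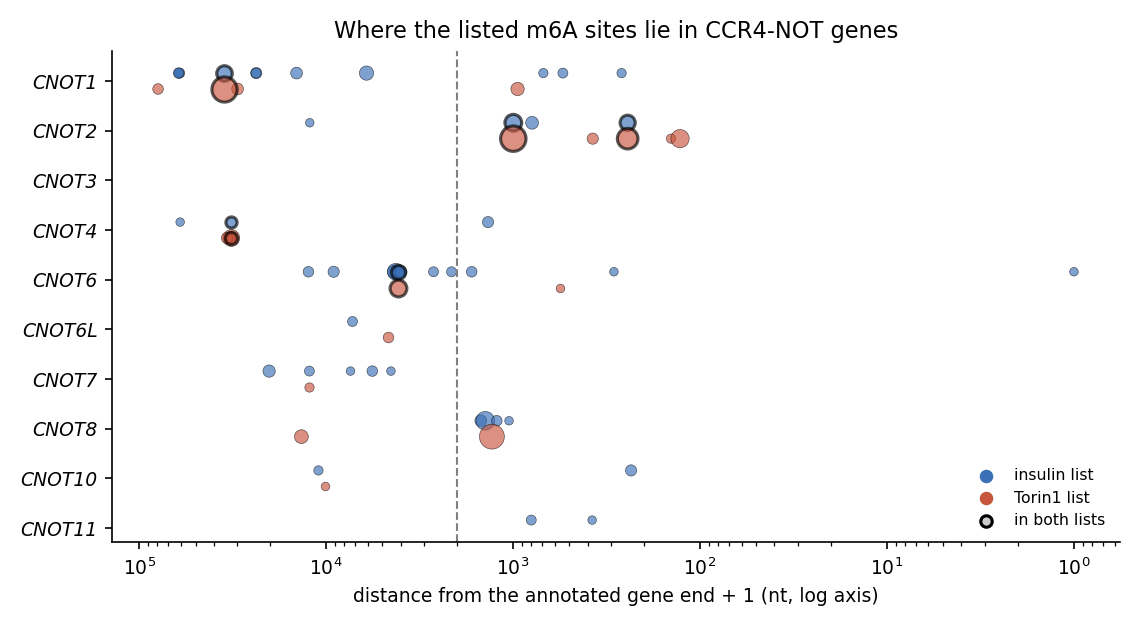
Distance of each listed m6A site from the annotated end of its gene (plus 1, log axis, gene end at the right) for the 10 subunit genes; blue is the insulin list, red the Torin1 list, point area grows with the reads over the site, heavy outlines mark positions in both lists and the dashed line is at 2000 nt. Sites of CNOT2, CNOT8 and CNOT11 sit mostly right of the line, the CNOT4 cluster lies 32176 to 32618 nt from the end, and CNOT3 has no point.

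CNOT3 (chr19:54137762-54155681) had no site in either list, on either strand, although its mRNA was at 2376 ± 127 units with insulin (SD, n = 3). Of 2139 tested protein-coding genes with a mean level within 1.5-fold of that of CNOT3, 2.76% had no site in either list. The same held for its surroundings. Of 14 tested genes that start between 54000001 and 54500000 on chromosome 19, 1 had a site on its strand, LENG8 with 1 in the insulin list. Among the 4 of these genes with a mean of at least 1000 units, CNOT3, MBOAT7, RPS9 and LENG8, only LENG8 had one, where 97.0% of 3486 such genes in the table did. The window before it, from 53500001 on, held 18 insulin and 12 Torin1 sites. The window after it held no site and no tested gene, and the one from 55000001 on held 96 and 62 sites. The lists also hold sites on alternate scaffolds of the build, 42 with insulin and 28 with Torin1, of which 2 and 1 are on scaffolds of chromosome 19. The part of the build in the missing sites was not tested, and the 0 of CNOT3 cannot be read as absence of m6A.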

How the data were processed

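The 6 input libraries and the 6 miCLIP libraries were analysed as deposited. The submitters' processing notes name BWA 0.7.1, STAR, DESeq2 1.22.2, DESeq and the build hg38, without saying which step used which; the strand of the counting and the annotation are not given in the sources used here. The expression values are a score: whole numbers that the authors normalized and rounded before they deposited them, since low values in 5 libraries fall on a grid whose step is above 1. They were not treated as read numbers. The value of 1 read was taken from that grid (values up to 100, at least 99% on the grid). In insulin replicate 3 and Torin1 replicate 2 the step was near 1, at 1.053 and 1.031. There 99.68% and 99.23% of values lay on the grid, where 95% and 97% would by chance, so these 2 depths are less certain. Library totals and depths limit the precision of low genes.

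Genes that reached 10 units in 3 or more libraries (13842 of 17520) were tested on log2(value + 1) with limma 3.58.1 in R 4.3.3, with a trend in the prior variance and Benjamini-Hochberg adjustment over all of them. All fold changes refer to this log2 scale, and for low genes they are too small. A second limma test asked for a change beyond 1.5-fold. The test was checked on simulated data. Values were not divided by length, so levels are not ranked between genes, and sets of genes with values like those of a member are only roughly alike in level. Replicate numbers did not pair the samples (correlations of deviations -0.02, 0.01 and 0.00), so no block was used.

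The m6A lists deposited by the authors give the fraction of substituted reads at each position, with both read numbers, and list each position once per condition under 1 replicate. Sites were given to a member by position and strand, from RefSeq gene bodies (GRCh38.p14). The strand came from the promoter table for 8 members and, for CNOT1 and CNOT7, from most of their sites, a rule that matched 90.6% of sites in 4582 genes. Intervals are exact or Wilson 95% intervals (scipy 1.17.1) and cover counting error only.

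All members are described. From each list of other decay genes up to 4 called genes with the largest absolute change are named, with the 3 nearest patterns of the members that rose and fell most and up to 3 positions per member with the most substituted reads. Further decay genes are named for contrast, after their values were seen. The members and lists were chosen with earlier results of these data known. Alternatives were 2 other scalings, 2 pseudocounts, no filter, no trend, a replicate block, each library left out and other read minimums. All sample columns of the table were used.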

Additional observations from a re-analysis of the deposited data

How the results depend on the processing

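The number of members called lower went from 5 to 3 with scaling to equal totals and to 3 with quantile normalization. Over all tested genes equal totals gave 6681 higher and 5281 lower calls, or 55.9% higher, against 50.5% as deposited. Leaving out 1 library in turn changed only the call of CNOT4 among the members. Of the main results under the alternatives 105 values stayed on their side of the threshold or within 1.5 times and 10 moved. Those that stayed include the paralog ratios, whose exact tests could not pass the threshold in any alternative. Of the values for named genes 391 stayed, 7 lost their call and 2 gained one, and none of these named results changed sign. With quantile normalization, however, 125 other genes were called in the opposite direction, the totals were 5858 higher and 5929 lower, and the members' median turned from -0.07 to 0.11 (0.06 with equal totals). With the replicate block 5983 genes were called higher and 5867 lower, and no member changed its call. The numbers share no pairing beyond the number itself, and for the paralog ratios an exact test by sign flips within replicate numbers gave p = 0.25, the smallest that 3 pairs allow. The insulin list held 18 member sites under replicate 1 only, 3 with 3 or more substituted reads and 7 with 10 or more reads. Leaving out the sites of each replicate in turn left 23 to 40. The Torin1 list held 5 and 8 by those minimums, and 2 to 22 with a replicate left out. The depth behind these numbers was a median of 4.0 and 6.5 reads per member site.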

Other observations

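In the whole m6A lists, 53 of 11627 positions listed under replicate 1 in both conditions with at least 10 reads in each differed in their share of substituted reads by Fisher's exact test at an adjusted p below 0.05. Of these 52 were lower and 1 was higher with Torin1. No position in a CCR4-NOT member gene was among those tested. The test compares 1 library per condition, so it has no replicate check.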
